A study of Homo sapiens with 10 samples.

Results

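The MHC class I presentation genes followed here encode the parts of 1 pathway, and 9 of the 23786 genes on the arrays are its members: the heavy chains HLA-B, HLA-C, HLA-E and HLA-F, the light chain B2M, the peptide transporter subunits TAP1 and TAP2, and the inducible proteasome subunits PSMB8 and PSMB9. They were taken by name, through the Entrez gene ID of each row, and all 9 IDs were found. MCF10A, an established non-tumorigenic human mammary epithelial line, was either left untreated or kept with TGFβ at 10 ng/mL for 4 h or for 1, 2, 3, 4, 5, 6, 8 or 12 days, which drives an epithelial-to-mesenchymal transition (EMT). Each of the 10 times has 1 array, the treatments were staggered so that all plates were harvested together, and cells were held in serum-free medium before harvest. Values are log2 signals after RMA normalization, so a difference of 1 is a 2-fold change, and they compare 1 gene between arrays but not different genes with each other.

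Class I molecules show fragments of a cell's own proteins to CD8 T cells and to natural killer cells. The proteasome cuts proteins, TAP1 and TAP2 carry the peptides into the endoplasmic reticulum, and tapasin and other helpers load them onto a heavy chain paired with β2-microglobulin, the product of B2M. HLA-B and HLA-C are classical, highly variable heavy chains, HLA-E presents leader peptides to the NKG2A receptor of natural killer cells, and HLA-F is a non-classical chain with low variability. Interferons are the best known inducers of all these genes, through the transactivator NLRC5 and factors of the IRF and STAT families, and TGFβ is widely described as a brake on this pathway in immune settings.

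The control regions of the genes are shown here because the members share short elements through which interferon and NLRC5-associated factors are known to act. The stretches are human reference sequence from RefSeq on GRCh38.p14, not the alleles of MCF10A, and each is written 5′ to 3′ and ends at the base before the transcription start (for TAP1 the first and for PSMB8 the second of 2 annotated starts). The ISRE match of PSMB8 spans its start and is therefore not in the stretch shown. Capitals mark matches to an interferon-stimulated response element core (ISRE, GAAANNGAA or its reverse), a STAT site (GAS, TTCNNNGAA), a kappa B site (GGGATTCCC), a CRE core (TGACG) and a CCAAT box (CCAAT, or ATTGG on the other strand).
HLA-B, chr6:31357180-31357369, minus strand: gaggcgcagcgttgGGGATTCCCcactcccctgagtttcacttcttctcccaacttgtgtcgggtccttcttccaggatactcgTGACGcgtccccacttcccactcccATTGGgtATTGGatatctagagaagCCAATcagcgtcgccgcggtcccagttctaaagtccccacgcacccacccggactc
HLA-C, chr6:31272093-31272282, minus strand: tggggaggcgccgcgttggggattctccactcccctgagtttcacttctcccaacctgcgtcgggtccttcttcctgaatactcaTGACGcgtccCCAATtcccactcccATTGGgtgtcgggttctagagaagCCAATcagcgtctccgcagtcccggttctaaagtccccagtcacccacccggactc
HLA-F, chr6:29723244-29723433, plus strand: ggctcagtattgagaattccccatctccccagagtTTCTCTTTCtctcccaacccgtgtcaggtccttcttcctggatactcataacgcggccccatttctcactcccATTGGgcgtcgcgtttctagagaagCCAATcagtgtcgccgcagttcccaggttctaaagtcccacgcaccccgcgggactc
B2M, chr15:44711327-44711516, plus strand: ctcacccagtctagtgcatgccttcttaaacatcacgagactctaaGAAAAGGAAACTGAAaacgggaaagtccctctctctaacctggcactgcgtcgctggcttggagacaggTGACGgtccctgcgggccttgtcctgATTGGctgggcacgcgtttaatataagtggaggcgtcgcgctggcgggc
TAP1, chr6:32853705-32853894, minus strand: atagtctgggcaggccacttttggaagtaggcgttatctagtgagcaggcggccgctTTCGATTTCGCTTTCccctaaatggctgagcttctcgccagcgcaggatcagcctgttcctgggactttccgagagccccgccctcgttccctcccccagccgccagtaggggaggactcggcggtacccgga
PSMB8, chr6:32844048-32844147, minus strand: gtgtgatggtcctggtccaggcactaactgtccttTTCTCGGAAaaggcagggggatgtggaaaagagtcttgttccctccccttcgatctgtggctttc

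Of the 9 members, 8 had a promoter window in the RefSeq table (250 bases before to 50 after the start), and HLA-E had none. In HLA-B, HLA-C and B2M a TGACG was followed by an ATTGG on the same strand, with 25, 25 and 26 bases between their first letters, an arrangement that resembles the X2 and Y boxes described for class I promoters. A pair with a spacing of 24 to 28 bases was present in 89 of the 35116 windows of the table (0.253%). HLA-B, HLA-C and HLA-F also shared an unbroken run of 18 bases around a CCAAT box, tctagagaagCCAATcag, which begins 66, 66 and 67 bases before the start. The ISRE core matched in 5 of the 8 members (B2M, HLA-F, PSMB8, TAP1 and TAP2) and in 8.11% of all windows, and in B2M and TAP1 there were 2 overlapping matches. The GAS letters matched in PSMB8 and TAP1 (7.66% of all windows) and the kappa B letters in HLA-B (0.384%). CRE cores, CCAAT boxes and the SP1 letters GGGCGG each matched in 5 or 6 members and are common, at 24.6%, 34.6% and 45% of all windows. TATAAA matched in TAP2 (11.5% of all windows), and the palindromic SMAD letters GTCTAGAC matched in no member and in 0.202% of all windows. TAP1 and PSMB9 are transcribed away from each other from starts 488 bases apart, and their windows overlap by 13 bases. A match describes the letters of the reference and was not tested for a bound factor.

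**Figure D1:**
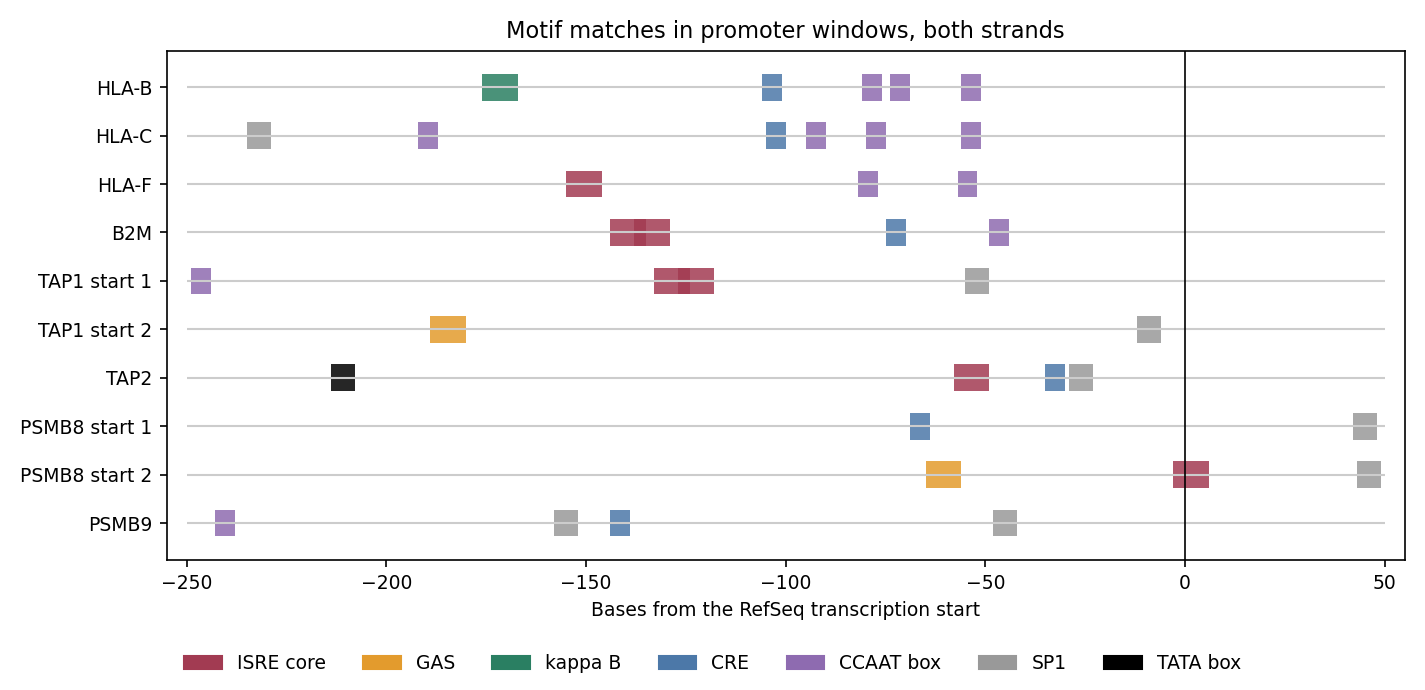
Motif matches on both strands in the promoter windows of 8 members, by bases from the RefSeq start (vertical line); each bar is 1 match in its true length, and TAP1 and PSMB8 have 2 starts each. The CRE core (blue) and a CCAAT box downstream of it (purple) sit 25, 25 and 26 bases apart in HLA-B, HLA-C and B2M, and ISRE cores (red) lie in 5 of the 8 genes.

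The arrays were close to each other in scale, with medians from 2.92 to 2.98, but the untreated array stood apart. Its median distance from each gene's median was 0.238 against 0.0994 to 0.162 on the 9 treated arrays, and its mean correlation with the others was 0.960 against 0.973 to 0.983. Of the 6 mesenchymal markers, FN1, CDH2, SPARC, TAGLN and POSTN rose from the early arrays to the late ones, and VIM had a difference of 0.37 that did not pass. For tests across all genes the arrays were placed in 3 windows by their time: early (untreated, 4 h and day 1, n = 3), middle (days 2, 3 and 4, n = 3) and late (days 5, 6, 8 and 12, n = 4). The spread within a window therefore holds both array noise and real change over those times, and p-values (limma, adjusted over all 23786 genes) measure only this spread. A gene passed when its adjusted p was at most 0.05 and its log2 difference at least 1.

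Presentation genes were at their lowest before TGFβ. The untreated array held the lowest of the 10 values for 8 of the 9 members, the exception being PSMB9, whereas it was the lowest for 17.2% of all genes, and for 27.8% of the 11747 genes with a mean of at least 3. Relative to the untreated array, the mean of the members was higher by 0.37 at 4 h, 0.42 at day 1, 0.67 at day 2, 0.79 at day 3 and 0.69 at day 4. It then stood at 0.53, 0.45 and 0.53 above untreated on days 5, 6 and 8, and at 0.71 on day 12. All 9 members were above their untreated value on 7 of the 9 treated arrays, and 8 of 9 on the arrays of 4 h and day 6, PSMB9 being the one below on both. Every one of these differences has the same single untreated array on 1 side, and because that array stood apart, what part of them belongs to the array cannot be told apart from TGFβ. In a bulk culture, a change in all cells also cannot be told apart from a larger change in some of them.

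**Figure D2:**
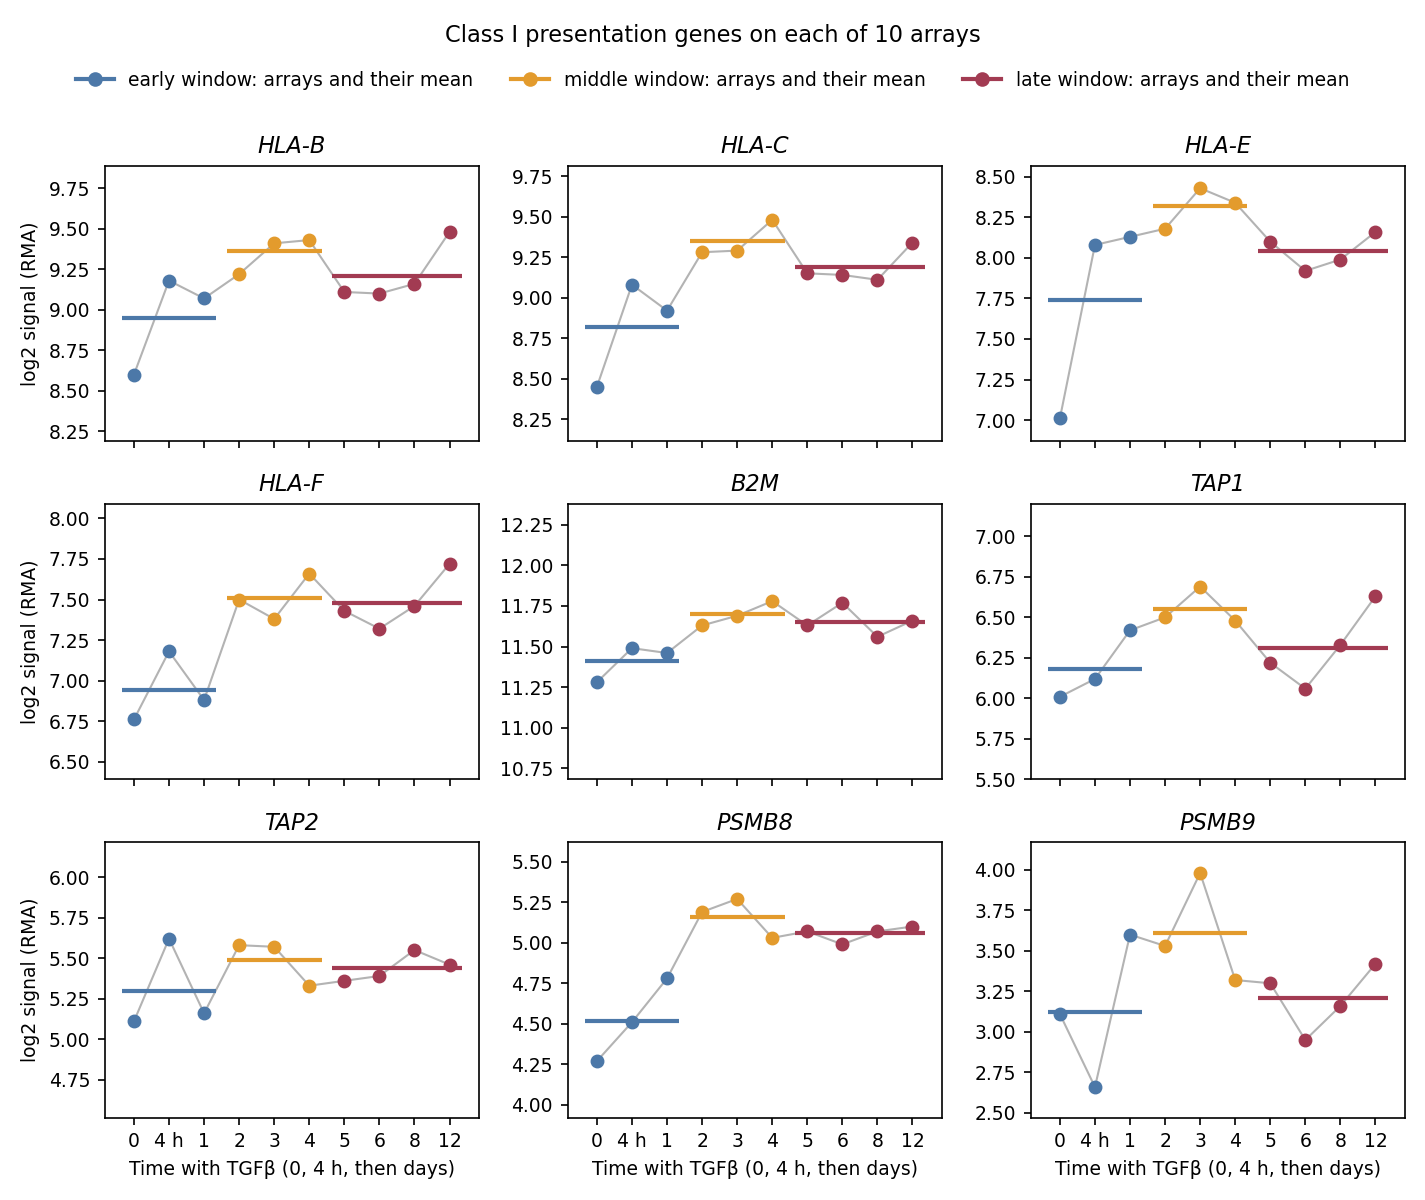
Log2 signal (RMA) of each of the 9 members on the 10 arrays in time order, all panels spanning 1.7 log2 units; colours are the windows and horizontal lines their means. For 8 members the lowest point is the untreated array, most have their highest values on days 2 to 4, and HLA-B and HLA-F have theirs on day 12.

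HLA-E changed most among the heavy chains, and most of it lay between the untreated array and the first treated one. It stood at 7.01 untreated, 8.08 at 4 h and 8.13 at day 1, at 8.18, 8.43 and 8.34 on days 2, 3 and 4, and at 8.10, 7.92, 7.99 and 8.16 on days 5, 6, 8 and 12. The 9 treated values spanned only 0.52, while the untreated value lay 0.90 below the lowest of them. HLA-E was the 1 member at least 1 log2 above untreated at 4 h (1.07), as were 2.21% of all genes, and its largest value, on day 3, was 2.67-fold above untreated. All 4 late values lay below all 3 middle ones, as for 6.15% of all genes, with a late minus middle difference of -0.28 (adjusted p = 0.777).

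HLA-B and HLA-C had nearly the same course. HLA-B was at 8.60 untreated, 9.18 and 9.07 at 4 h and day 1, 9.22, 9.41 and 9.43 on days 2, 3 and 4, and 9.11, 9.10, 9.16 and 9.48 on days 5, 6, 8 and 12. HLA-C was at 8.45 untreated, 9.08 and 8.92 at 4 h and day 1, 9.28, 9.29 and 9.48 on days 2, 3 and 4, and 9.15, 9.14, 9.11 and 9.34 on days 5, 6, 8 and 12. Both were higher on every treated array than on the untreated one, by 0.46 to 0.87 for HLA-B and by 0.47 to 1.03 for HLA-C, and both stepped down between days 4 and 5 before a higher day 12. Their correlation over the 10 arrays was 0.95, and 0.85 over the treated arrays. The heavy chain genes are close copies of each other in sequence, and the probe sequences were not used here, so their signals may share a source and their separate courses are uncertain.

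HLA-F had its lowest values on the early arrays, and its treated values spanned 0.84, the widest range of the 4 heavy chains. It was at 6.76 untreated, 7.18 at 4 h and 6.88 at day 1, at 7.50, 7.38 and 7.66 on days 2, 3 and 4, and at 7.43, 7.32, 7.46 and 7.72 on days 5, 6, 8 and 12. Its 3 early values all lay below its 7 later ones. The highest value, on day 12, was 1.95-fold above untreated.

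B2M, the light chain that pairs with class I heavy chains, had the smallest range of the 9 members. It was at 11.28 untreated, 11.49 and 11.46 at 4 h and day 1, 11.63, 11.69 and 11.78 on days 2, 3 and 4, and 11.63, 11.77, 11.56 and 11.66 on days 5, 6, 8 and 12. Each of the 7 values from day 2 on was above all 3 early ones, and the whole range was 0.50, or 1.41-fold.

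The transporter subunits did not follow each other closely. TAP1 was at 6.01 untreated, 6.12 and 6.42 at 4 h and day 1, 6.50, 6.69 and 6.48 on days 2, 3 and 4, and 6.22, 6.06, 6.33 and 6.63 on days 5, 6, 8 and 12. It thus peaked on day 3, was within 0.05 of the untreated value on day 6 and was high again on day 12. TAP2 was at 5.11 untreated, 5.62 and 5.16 at 4 h and day 1, 5.58, 5.57 and 5.33 on days 2, 3 and 4, and 5.36, 5.39, 5.55 and 5.46 on days 5, 6, 8 and 12. Its highest value was the one at 4 h, its early and late values overlapped, and its correlation with TAP1 was 0.34 over the 10 arrays. The highest of the correlations with PSMB9 was that of its divergent neighbour TAP1, at 0.82.

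PSMB8, which replaces PSMB5 in the immunoproteasome, had a stepwise increase followed by a plateau. It was at 4.27 untreated, 4.51 at 4 h and 4.78 at day 1, at 5.19, 5.27 and 5.03 on days 2, 3 and 4, and at 5.07, 4.99, 5.07 and 5.10 on days 5, 6, 8 and 12. All 7 values from day 2 on were above the 3 early ones, and the 4 late values differed by an SD of only 0.05. PSMB9, which replaces PSMB6, had no such course. It was at 3.11 untreated, 2.66 at 4 h and 3.60 at day 1, at 3.53, 3.98 and 3.32 on days 2, 3 and 4, and at 3.30, 2.95, 3.16 and 3.42 on days 5, 6, 8 and 12. These values were near the middle of the arrays' scale (medians 2.92 to 2.98), and the early and late ones overlapped.

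The constitutive subunits allowed a comparison within each array, but each change from untreated still rested on the single untreated array, which stood apart. That array held the lowest PSMB8 value and the highest PSMB5 value. PSMB5 was at 6.75 untreated and between 5.82 and 6.23 on the treated arrays, so the difference PSMB8 minus PSMB5 was above its untreated value by 0.76 at 4 h, 1.05 at day 1, 1.85 at day 2 and 1.44 to 1.74 on the later days. For PSMB9 minus PSMB6 the change from untreated ran from -0.63 at 4 h to 1.11 on day 3, and for PSMB10 minus PSMB7 from -0.40 to 0.45 with no order in time. PSMB10 was at 2.65 to 3.33 on the 10 arrays, near the array medians, as was PSMB9. The courses of the 3 inducible subunits thus differed on these arrays. This difference, and the part of low signal in it, was not tested. PSME1 and PSME2, the PA28 activator subunits that interferon induces together with the immunoproteasome, were lower on every treated array than on the untreated one. PSME1 was at 7.40 untreated, 6.61 and 6.90 at 4 h and day 1, and 5.88 to 6.24 on the 4 late arrays, a late minus early difference of -0.93 ± 0.17 (SE, adjusted p = 0.00341). PSME2 was at 7.32 untreated, 6.80 and 6.79 at 4 h and day 1, and 6.00 to 6.37 late, a difference of -0.83 ± 0.17 (SE, adjusted p = 0.00628). Neither window difference reached the limit of 1 log2, both stayed at an adjusted p below 0.05 without each array in turn, and 7.12% of all genes were lower at adjusted p alone.

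**Figure D3:**
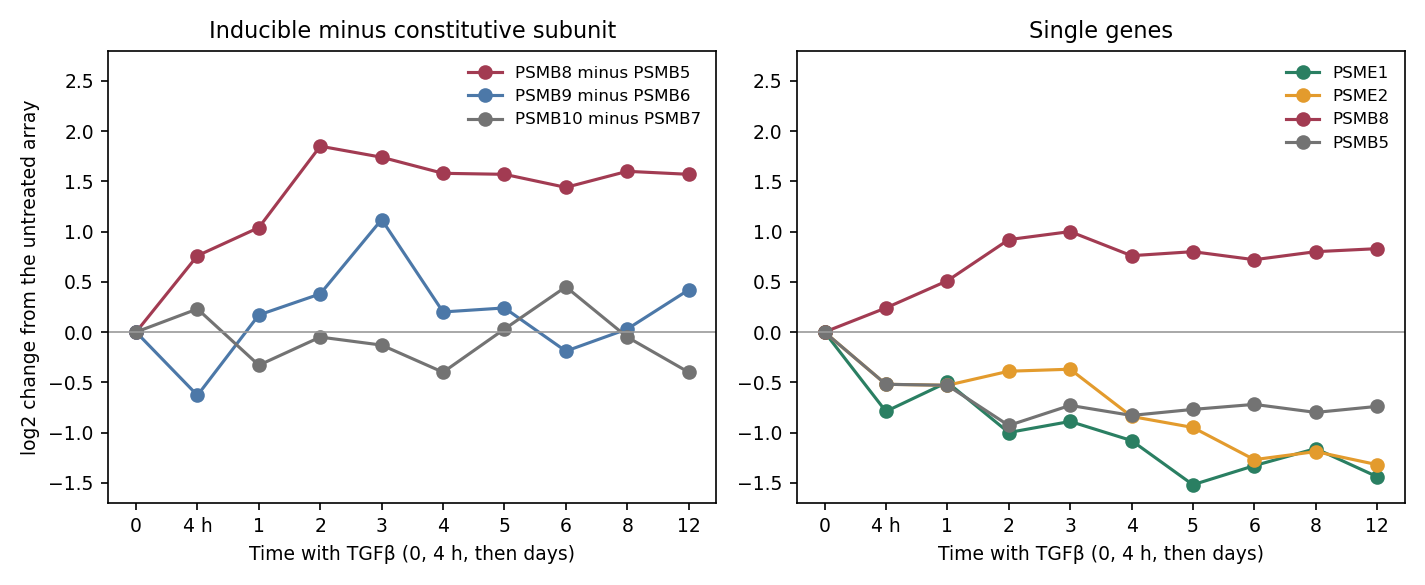
Log2 change from the untreated array by time with TGFβ: left, differences between an inducible proteasome subunit and the constitutive subunit it replaces; right, PSMB8, PSMB5 and the PA28 subunits PSME1 and PSME2 alone. PSMB8 minus PSMB5 is 0.76 to 1.85 above untreated on all treated arrays, whereas PSME1 and PSME2 are below untreated on all of them. All changes share the single untreated array, which stood apart.

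Of the 9 members, 0 passed both limits in any comparison of windows. In late against early, 4.56% of all genes passed (694 higher and 390 lower), in middle against early 2.8%, and in late against middle 0.374%. At adjusted p alone, HLA-F and PSMB8 were higher in both later windows, that is 2 of 9 members, beside 8.0% of all genes for late and 4.25% for middle against early. At an unadjusted p under 0.05, 4 members were higher in late against early (13.1% of all genes), 7 in middle against early (10.6% of all genes) and 0 differed in late against middle (9.78% of all genes in either direction).

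PSMB8 was at 4.52 ± 0.26 early, 5.16 ± 0.13 in the middle and 5.06 ± 0.05 late (SD). Its differences were 0.64 ± 0.14 (SE, adjusted p = 0.0172) for middle and 0.54 ± 0.13 (SE, adjusted p = 0.0165) for late against early, the latter 1.45-fold. Without the untreated array the late difference was 0.41 (adjusted p = 0.0562) and the middle one 0.52 (adjusted p = 0.0481). The middle difference was also above the p limit without day 2 (0.63, adjusted p = 0.0604) and without day 3 (0.59, adjusted p = 0.0687). HLA-F was at 6.94 ± 0.22 early, 7.51 ± 0.14 in the middle and 7.48 ± 0.17 late (SD). Its differences were 0.58 ± 0.15 (SE, adjusted p = 0.0378) and 0.54 ± 0.14 (SE, adjusted p = 0.0214), the latter 1.46-fold. The late difference was above the p limit without the untreated array (0.45, adjusted p = 0.0761), day 1 (0.52, adjusted p = 0.0532) or day 8 (0.55, adjusted p = 0.0501). The middle one was above it without the untreated array or any of days 1, 2, 3, 4, 5 and 8 (adjusted p = 0.0567 to 0.133), so the call for HLA-F rests on nearly every array.

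For the other 7 members the differences were all above 0 and none passed. HLA-C was nearest, at 0.53 ± 0.16 (SE, adjusted p = 0.0661) for middle and 0.37 ± 0.15 (SE, adjusted p = 0.128) for late against early. For HLA-E the differences were 0.58 and 0.30 (adjusted p = 0.192 and 0.438), and for HLA-B 0.41 and 0.26 (adjusted p = 0.175 and 0.302). Those of B2M were 0.29 and 0.24 (adjusted p = 0.161 for both), of TAP1 0.37 and 0.13 (adjusted p = 0.203 and 0.631), of TAP2 0.20 and 0.14 (adjusted p = 0.510 and 0.554) and of PSMB9 0.48 and 0.08 (adjusted p = 0.264 and 0.850). Without the untreated array the late difference of HLA-E turned from 0.30 to -0.06 (adjusted p = 0.817), and that of HLA-B went from 0.26 to 0.09. For PSMB9 the late difference turned to -0.15 (adjusted p = 0.709) without the 4 h array. The median late minus early difference was 0.26 over the members and -0.06 over all genes, and the median middle minus early difference was 0.48 over the members and -0.03 over all genes.

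The order of the values is given without a test. All late values were above all early ones for HLA-C, HLA-F, B2M and PSMB8, which is 4 of 9 members beside 10.8% of all genes. All middle values were above all early ones for 7 members, all but TAP2 and PSMB9, beside 11.9% of all genes. Late minus middle differences were below 0 for all 9 members, from -0.40 for PSMB9 to -0.03 for HLA-F, with adjusted p between 0.615 and 0.973.

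**Figure D4:**
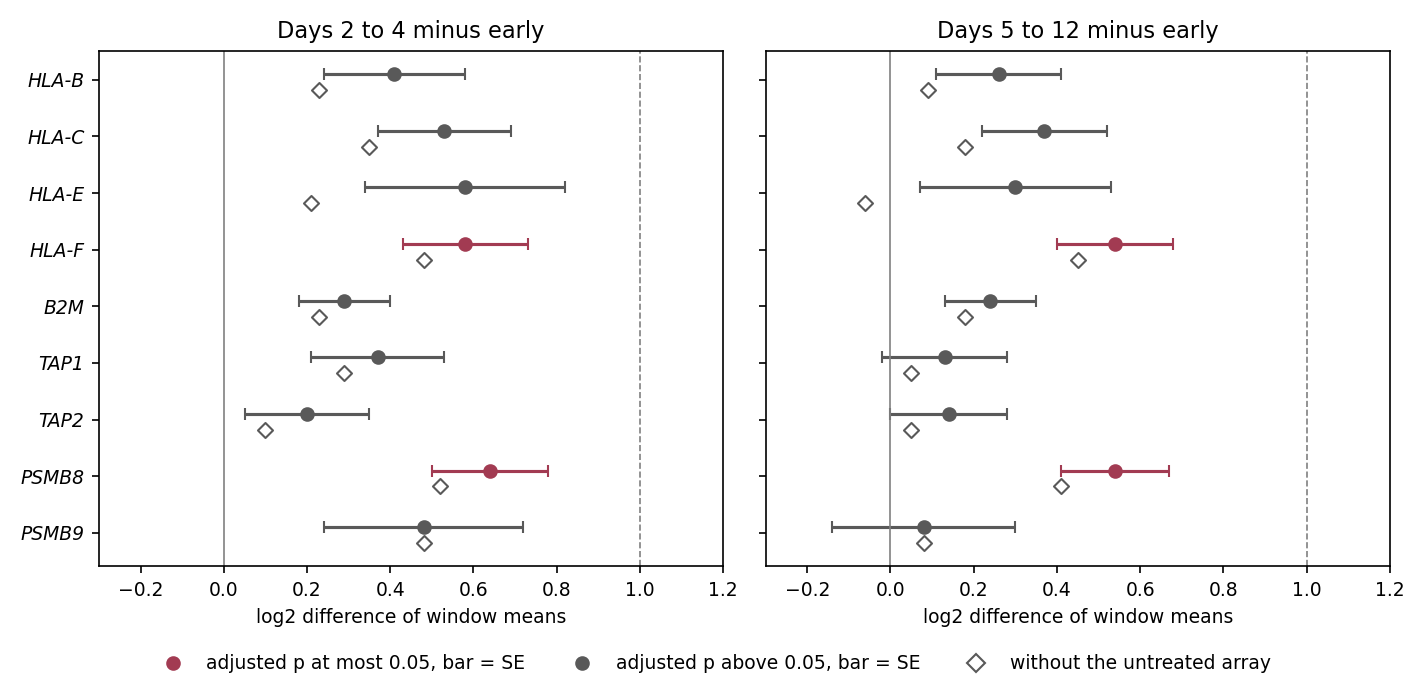
Log2 differences of window means for the 9 members, with the SE of the fit as bars; red points have an adjusted p of at most 0.05, open diamonds leave out the untreated array and the dashed line marks the limit of 1 log2. HLA-F and PSMB8 are the red points in both panels, at 0.54 to 0.64, and the diamond of HLA-E falls from 0.30 to -0.06 in the late comparison.

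A smooth course over time was also fitted, with time in days and its square. No member passed its 3 limits (adjusted p at most 0.05, R2 at least 0.6 and a change from untreated of at least 1 log2), while 8.65% of all genes did. The lowest adjusted p was 0.107 for PSMB8 (R2 = 0.59), then 0.111 for HLA-F (R2 = 0.58), and both had an unadjusted p under 0.05. When time was entered as log2(1 + hours), which gives the first day more room, HLA-C, HLA-E and PSMB8 passed, beside 12.3% of all genes. These 3 were the only members that could pass either form, because a change from untreated of at least 1 log2 is 1 of the limits. Their largest changes from untreated were 1.03, 1.42 and 1.01. Of all genes, 11.4% were at least 1 log2 above untreated on some treated array.

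The members resembled each other in their courses, though over only 10 arrays that share the untreated one. The 36 pairs had correlations from -0.02 to 0.95 with a median of 0.70, and the 6 pairs of heavy chains from 0.67 to 0.95 with a median of 0.90. Over the 9 treated arrays alone the medians were 0.48 for all pairs and 0.72 for the heavy chains, so part of the likeness came from the untreated array. PSMB9 stood apart, with a median correlation of 0.34 with the other 8 members. Of the 6124 named genes with a range of at least 1 log2, 83 had a correlation of at least 0.9 with the mean profile of the members. The 8 closest were RGS12 and GRN (both 0.98), KCTD7, HEXA, ZBTB4, LPIN3 and OCIAD2 (all 0.96) and MIR612 (0.95). GRN encodes progranulin and HEXA a subunit of the lysosomal enzyme hexosaminidase A. GRN was at 7.62 untreated, 9.55 on days 2 and 3, 8.74 on day 6 and 9.37 on day 12, and over the treated arrays alone its correlation was 0.94.

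The remaining heavy chain and class I-like genes gave 0 of 10 that passed both limits. HFE, a class I-like protein of iron metabolism, had 0.60 ± 0.14 (SE, adjusted p = 0.0146), which was 0.47 (adjusted p = 0.0603) without the 4 h array. CD1A and FCGRT, at -0.27 and -0.23, did not pass.

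Among 11 measured genes of peptide loading and trimming, 0 passed both limits. ERAP1, the aminopeptidase that trims peptides to class I length, had the largest difference and passed the course over time (adjusted p = 0.0250, R2 = 0.69). It was at 4.78 untreated, 5.53 and 5.91 at 4 h and day 1, 6.52, 6.17 and 6.31 on days 2, 3 and 4, and 6.37, 6.52, 6.28 and 5.96 on days 5, 6, 8 and 12. Its late minus early difference was 0.88 ± 0.23 (SE, adjusted p = 0.0243), and 0.56 to 0.88 with an adjusted p of 0.0582 to 0.0672 without the untreated array or day 5, 6 or 8. TAPBP, which encodes tapasin, was at 7.36 untreated and 7.81 to 8.51 on the treated arrays, with a late difference of 0.37 (adjusted p = 0.248). CALR, the chaperone calreticulin, was at 0.24 (adjusted p = 0.151) and TAPBPL, a tapasin relative, at -0.41 (adjusted p = 0.114).

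The rest of the proteasome gave no member past both limits in any window comparison, and its differences lay mostly below 0. Of 11 other core subunits, 9 had a late minus early difference below 0 and 2 above it, while 9671 of all 23786 genes were above 0. The list median was -0.28, against -0.06 over all genes. PSMA7 (-0.68, adjusted p = 0.00263), PSMA5 (-0.64, adjusted p = 0.0144) and PSMA2 (-0.53, adjusted p = 0.0130) were lower at the p limit alone, beside 7.12% of all genes. PSMA5 was above that limit without the 4 h array (-0.58, adjusted p = 0.0563). Of the constitutive catalytic subunits, PSMB5 had -0.41 (adjusted p = 0.0702), PSMB6 -0.19 and PSMB7 -0.05. The PA28 subunits PSME1 and PSME2 passed the 3 limits of the course over time, beside 8.65% of all genes in either direction. Their adjusted p in that fit was 0.0186 and 0.00711, their R2 0.74 and 0.82, and their largest change from untreated -1.51 and -1.32.

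Known regulators of class I genes differed among themselves. Of 27 measured, IFNAR2, NFYB and STAT2 rose from early to late and 0 fell past both limits, beside 4.56% of all genes in either direction. NFYB, a subunit of the factor that binds CCAAT boxes, was at 5.86 untreated, 6.33 at day 1, 7.91 at day 2 and 7.10 on day 12, a late minus early difference of 1.59 ± 0.20 (SE, adjusted p = 0.000379). STAT2, a transcription factor of type I interferon signalling, was at 4.97 untreated, 5.89 at day 1 and 6.35 to 6.87 late (1.25 ± 0.20, SE, adjusted p = 0.00153). IFNAR2, a chain of the type I interferon receptor, had 1.10 ± 0.14 (SE, adjusted p = 0.000423). All 3 late calls held without each array in turn. RFX5, of the complex that joins NLRC5 at class I promoters, was just under the limit at 0.99 (adjusted p = 0.000923). NFKB1 (-0.66, adjusted p = 0.00622) and IRF1 (-0.68, adjusted p = 0.0117) were lower at adjusted p alone, as were IRF2 (-0.63, adjusted p = 0.0434) and ATF1 (-0.51, adjusted p = 0.0286), which is 4 of 27 beside 7.12% of all genes. Without an array in turn, the calls of IRF2 and ATF1 were lost in 8 and 4 fits. IRF1, IRF2, ATF1, NFKB1 and NLRC5 are named for their known role, after their values were seen. NLRC5 itself was at 2.65 to 3.91 with its highest value on day 3 (late minus early 0.18, adjusted p = 0.623).

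From early to late, 6 of 39 interferon-stimulated genes rose and 0 fell past both limits, beside 4.56% of all genes in either direction. Their promoters were not scanned for the ISRE. The difference was above 0 for 26 of the 39, with a median of 0.22. Named for their known role, after their values were seen, ISG15 had -0.15, IFIT1 0.62, IFIT2 -0.29, IFIT3 -0.13, MX1 0.10 and MX2 -0.08. OAS1 had -0.81, OAS2 -0.09, OAS3 -0.42 and OASL -0.22. None of these had an adjusted p of at most 0.05. GBP2, a guanylate-binding GTPase, had the largest difference at 2.12 ± 0.34 (SE, adjusted p = 0.00161), followed by DDX60L (1.48), SAMD9L and GBP1 (both 1.15) and IFI6 and IFI44L (both 1.03). DDX60L, SAMD9L and GBP2 passed without each array in turn. GBP1 passed only in the fit without day 12, and IFI44L and IFI6 were under the limit of 1 log2 in 4 and 3 such fits. From early to middle, 9 rose, namely IFI27 (1.99), GBP2, IFI6 (1.94), DDX60L, DDX60, SAMD9L, IFI44L, IFI44 and SAMD9, beside 2.8% of all genes in either direction, and 1, the tryptophanyl-tRNA synthetase WARS1, fell (-1.25). Without an array in turn, IFI44 lost this call in 4 fits, IFI44L in 3, and SAMD9 and WARS1 in 2 each. WARS1 was also lower from early to late at adjusted p alone (-0.99, adjusted p = 0.0174), beside 7.12% of all genes, and lost that call in 2 fits. IFI27 was at 4.79 to 5.02 early, 6.80 to 6.90 in the middle and 5.02 to 5.59 late, and its late minus middle difference was -1.44 (adjusted p = 0.00471), and -1.43 (adjusted p = 0.0521) without day 3. The members' own late minus middle differences, all below 0, were at most 0.40 in size. The 8 measured interferon genes were at 3.18 or less on all arrays, and none passed.

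Genes of other antigen-presentation routes and of other cells were checked in the same way. Of 13 MHC class II genes, 0 passed, and 8 of them, among them HLA-DRA (1.08 to 1.59) and CD74 (1.52 to 2.48), were below the lowest array median on all arrays. CTSS, the protease cathepsin S, was at 3.56 to 4.87 and had the largest late minus early difference of that list (-0.74, adjusted p = 0.0560). Of 7 NKG2D ligands, which mark stressed cells for natural killer cells, 0 passed both limits. From early to late, ULBP2 (0.81, adjusted p = 0.0201) and ULBP3 (0.55, adjusted p = 0.0400) were higher at adjusted p alone, beside 8.0% of all genes. ULBP2 was above the p limit in 4 of the fits that left out an array and ULBP3 in 8. Of 10 leukocyte markers, PTPRC, CD3D, CD3E and MS4A1 were at 1.71 or less on all arrays, and CD14 fell (-1.22, adjusted p = 0.00101). CSF1R was at 4.92 untreated and 6.01 to 7.45 on the treated arrays (late minus early 0.97, adjusted p = 0.151), and its part in the members' values was not tested.

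**Figure D5:**
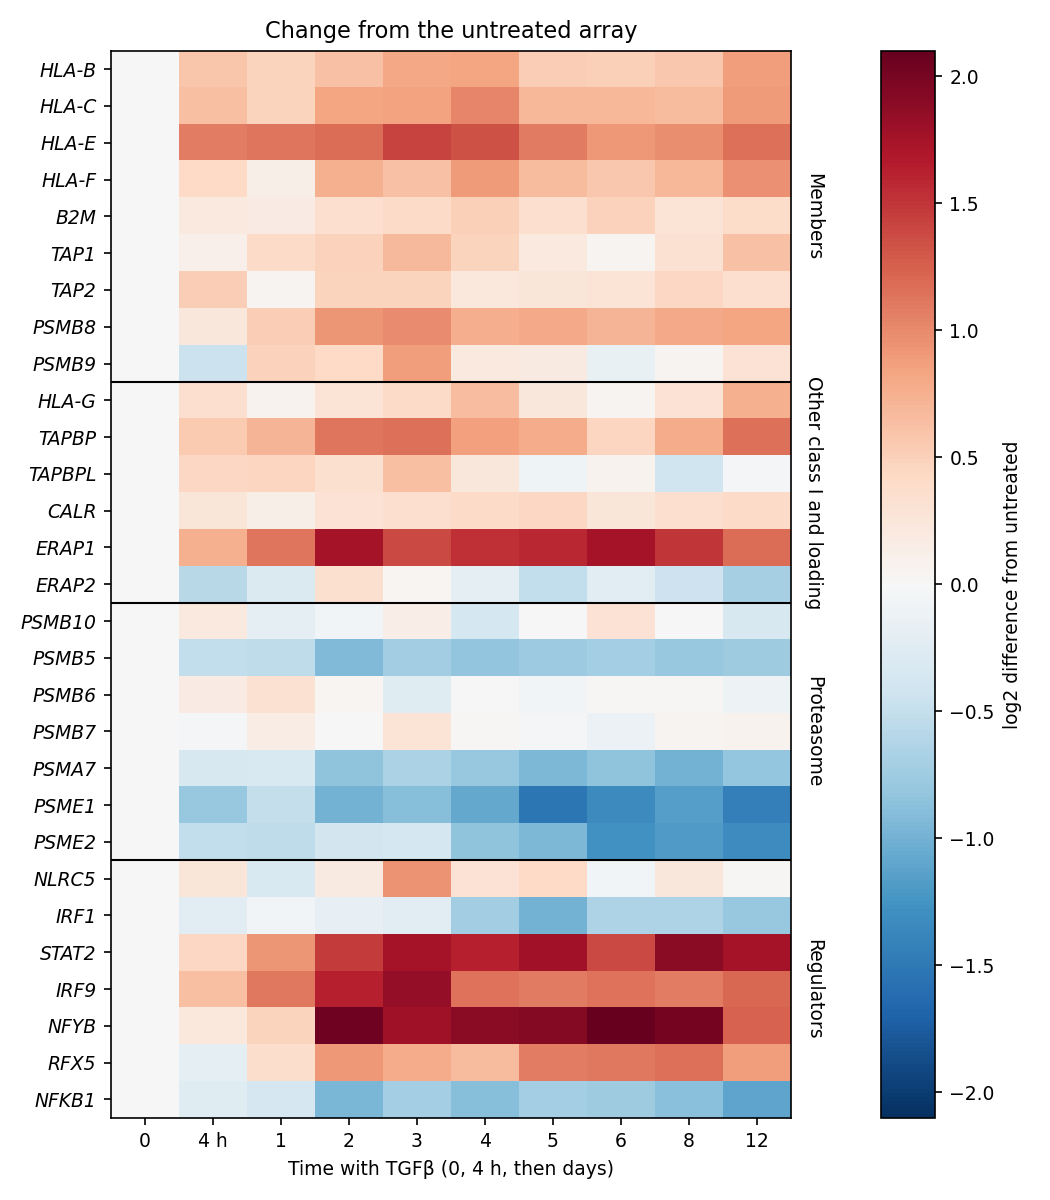
Log2 difference from the untreated array for the 9 members and for other genes of the pathway, picked for their role with values known; columns are the 10 arrays in time order. Of the members, 8 are red on every treated array, ERAP1, NFYB, STAT2 and IRF9 reach higher, and PSME1 and PSME2 are blue throughout. All differences share the single untreated array, which stood apart.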

How the data were processed

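Total RNA of MCF10A cells was hybridised to Affymetrix Human Gene 2.0 ST arrays, 1 per time. Per the study's methods, the authors deposited log2 values made by RMA (background correction, quantile normalization and median polish; affy 1.36.1) with an Entrez Gene-specific custom probe mapping (17.0.0), 1 value for each of 23786 genes, of which 23093 were named through the NCBI gene table. No array has a replicate, it is not stated whether an array holds 1 culture or a pool, and RMA makes each value relative to the rest of its array; the number of arrays limits the precision. From these values, window means were fitted in limma 3.58.1 (R 4.3.3) with an empirical Bayes variance, and p-values were adjusted by Benjamini-Hochberg over all genes. The median residual SD was 0.20. A quadratic in days was fitted for the course. The script was tested on simulated data. Alternatives were each array left out, centring on the array median, a mean of at least 3, another variance prior, adjusted p alone, day 1 or day 5 in the middle window and other forms of time. The members and the 13 other gene lists were chosen with earlier results of these data known. Named were all members, list genes that passed or were among the 4 largest late minus early differences of a list, and the 8 genes closest to the members' mean profile among those with a range of at least 1 log2. PDIA3, RAET1G, DDX58 and IFNA1 of the lists were not analysed here, and some other list genes are not reported here. No protein sequences were used.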

Additional observations from a re-analysis of the deposited data

Results flagged for a closer look

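HLA-B on day 12 stood apart from the other late arrays. It was at 9.48, against 9.10 to 9.16 on days 5, 6 and 8, and this gap was 0.838 of the range of the 4 arrays, above Dixon's critical value for that number of arrays. Chance flags about 1 in 20 such groups, the late windows of 9 members were looked at, and day 12 differs from the other arrays in time and is not their replicate. Day 12 was the highest late array for 7 of the 9 members, all but B2M and TAP2, and HLA-B alone crossed that value.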

How the results depend on the processing

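No fit of a course over time was made without the untreated array, which sets its time 0. No paired analysis was possible because each time has 1 array. In all alternatives that kept both limits, 0 members passed in each comparison of windows. With adjusted p alone as the limit, 2 members passed in late against early and 2 in middle against early. Without each array in turn, this count at adjusted p alone was 0 to 2 in late against early and 0 to 3 in middle against early, and with day 1 in the middle window it was 1 in each. With log2(1 + hours) and its square, 3 members passed the course over time, and with the mean of the untreated and 4 h arrays as baseline, 1 member (PSMB9) was at least 1 log2 higher at a later time in place of 3. Without each array in turn, the late minus early difference of HLA-E ran from -0.06, without the untreated array, to 0.49, and that of PSMB9 from -0.15, without the 4 h array, to 0.32; the cause of the changes of sign was not tested. The difference of HLA-F was above the p limit in 4 of 15 alternatives for late and in 8 of 15 for middle against early, and that of PSMB8 in 1 and 2. That of HLA-C for middle against early came under it in 3 of 15 (adjusted p = 0.0433 to 0.0471). The middle minus early alternatives per member and the counts at adjusted p alone were added after the data had been seen. With 1 array a time, no difference between single times can be tested.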
